A study of Mus musculus with 12 samples.

Results

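The genes described here are 10 that act when a leukocyte rolls on a vessel wall, arrests on it and passes through it, outside the integrins themselves. They were taken by symbol, namely Selplg, Cd44, Pecam1, Icam1, F11r, Cd99l2, Alcam, Fermt3, Tln1 and Jaml, and all 10 were in the count tables and among the 20135 features that passed the low-count filter, of 52553 in all. RNA was sequenced from CD115+ monocytes, CD115 being the receptor encoded by Csf1r, that were isolated with magnetic beads from male C57BL/6 mice. The groups were spleen and peripheral blood of intact mice, and spleen and blood 24 h after resection of 70% of the liver in mice that kept the spleen, with 3 libraries in each of the 4 groups and cells of 5 mice pooled in each library. Splenic cells were disaggregated and treated with collagenase, and their red blood cells were lysed, before the density gradient. None of these steps is described for blood, so the organ and the isolation procedure cannot be told apart. Levels are given as CPM, the deposited estimated counts relative to library sizes scaled by TMM, and a gene is said to have passed where its Benjamini-Hochberg adjusted p over all features in edgeR's quasi-likelihood test was under 0.05. SE stands for the standard error on the log2 scale. The libraries are pools, and p-values measure the spread between such pools.

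A leukocyte first rolls, held by selectins of the endothelium that bind sialylated and fucosylated sugars on carriers such as PSGL-1, the product of Selplg, and CD44. Chemokine signals then switch integrins to their binding state from inside the cell, for which talin-1 (Tln1) and kindlin-3 (Fermt3) attach to the integrin tails, and the cell arrests on ligands such as ICAM-1. Passage between endothelial cells runs over PECAM-1, JAM-A (F11r), the CD99-like protein (Cd99l2), ALCAM and JAML, several of which are carried by both the leukocyte and the endothelial cell.

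The sequences just before the transcription start are shown for Icam1, Cd44 and Fermt3, the genes among the 10 whose level passed the test between intact and resected mice in blood. They are the 250 bases upstream of the start in RefSeq on GRCm38.p6, 5′ to 3′ on the strand of the gene, a table that holds 8 of the 10 genes, whereas the reads were aligned to GRCm39 per the labels. Capitals mark matches to the 7 motifs searched on both strands.
Icam1 (chr9:21015690-21015939, plus strand): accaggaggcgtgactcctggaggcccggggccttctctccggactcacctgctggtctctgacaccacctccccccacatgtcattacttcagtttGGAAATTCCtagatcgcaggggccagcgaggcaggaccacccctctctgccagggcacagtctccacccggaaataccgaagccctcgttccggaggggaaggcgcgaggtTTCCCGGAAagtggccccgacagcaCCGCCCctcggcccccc
Cd44 (chr2:102901666-102901915, minus strand): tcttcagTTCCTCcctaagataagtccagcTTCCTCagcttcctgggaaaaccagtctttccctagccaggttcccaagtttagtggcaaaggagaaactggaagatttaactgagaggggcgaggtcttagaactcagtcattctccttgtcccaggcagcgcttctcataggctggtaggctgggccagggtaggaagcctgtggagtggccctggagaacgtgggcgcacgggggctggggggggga
Fermt3 (chr19:7019470-7019719, minus strand): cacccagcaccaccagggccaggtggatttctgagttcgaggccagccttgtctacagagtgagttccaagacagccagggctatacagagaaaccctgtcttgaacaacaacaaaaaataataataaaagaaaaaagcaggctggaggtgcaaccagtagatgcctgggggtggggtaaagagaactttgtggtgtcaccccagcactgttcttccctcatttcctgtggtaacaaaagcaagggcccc
In Icam1, GGAAATTCC began 153 bases before the start (position -153), TTCNNNGAA, the core letters of STAT sites, at -42, and GGGCGG, the core of Sp1 sites, at -17 on the opposite strand. GGAAATTCC is a form of the NF-kB site and was chosen after the sequence had been seen. It occurred in 0.286% of the 32851 promoter windows of the same length, TTCNNNGAA in 7.02% and GGGCGG in 32.7%. In Cd44, GAGGAA, the core of PU.1 sites, lay on the opposite strand at -243 and -220, and 23.3% of all windows held it. None of the motifs was found in the Fermt3 window. The remaining motifs were the NF-kB consensus (3.90% of windows, none of the 8 genes), TGANTCA, the core of AP-1 sites (6.75%, here in F11r at -109), and TATAAA (12.4%, here in Jaml at -100). A match gives the letters only and is no measure of binding.

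Totals ran from 36990033 to 46401368 estimated counts per library (median 42266747), and the lowest count of any of the 10 genes in any library was 61. Csf1r measured 209 to 1192 CPM, and all 10 genes of the monocyte marker list were above 3 counts in at least 1 library of every group. The same was true of the neutrophil, B-cell, T-cell, NK-cell, platelet, erythroid, dendritic cell and both macrophage lists, so it does not single out monocytes. In intact spleen the summed B-cell markers (4991 to 5673 CPM) were above the summed monocyte markers (3250 to 3604 CPM). Haemoglobin genes took 13.2 to 34.2% of the counts in the blood libraries and 0.0814 to 3.47% in the splenic ones. Summed T-cell markers stood at 2288 CPM in intact blood library 3 against 756 and 764 in the other two. Summed neutrophil markers were highest in library 3 of both groups of resected mice, at 21527 CPM against 4289 and 5397 in blood and at 15834 against 5742 and 6134 in spleen, where library 3 also held 847 CPM of Saa3, an acute-phase gene of the peritoneal macrophage list, against 36.2 and 19.0. Values without these 3 libraries are given for the calls after resection in blood and for part of the other values of the 10 genes.

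**Figure D1:**
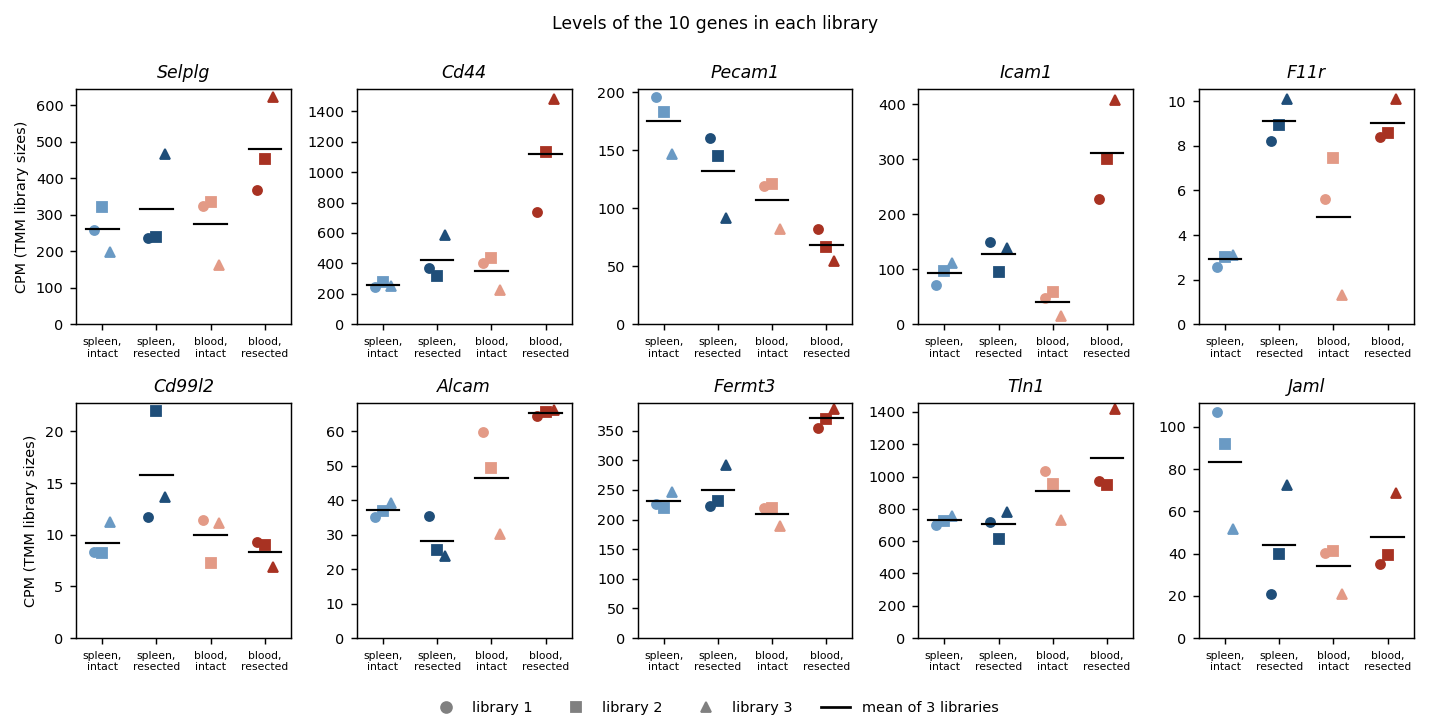
Each panel plots the CPM of one gene (linear axis from 0) in the 12 libraries by group, with a symbol for each library number and a bar for the mean of 3 libraries. Cd44, Icam1 and Fermt3 stand higher in all 3 blood libraries of resected mice than in every other library, and library 3 of the resected mice is the highest of its group for Selplg, Cd44, F11r, Fermt3, Tln1 and Jaml in both organs.

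In blood, 3 of the 10 genes passed as higher after liver resection and 0 passed as lower, where 10.8% of all features passed as higher and 10.3% as lower. Among those with a negative value, Pecam1 had an unadjusted p under 0.05, and DESeq2 called 0 of the 10 as lower. Icam1 changed most, at 7.62-fold, followed by Cd44 at 3.17-fold and Fermt3 at 1.77-fold. For 6 of the 10 (Selplg, Cd44, Icam1, F11r, Alcam and Fermt3) every library of resected mice was above every library of intact mice, while the libraries of the 2 states were separated in that direction for 19.4% of all features. The median log2 fold change of the 10 genes was 0.655, and that of all features -0.103. In such bulk samples more cells of a type and more RNA per cell cannot be told apart.

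Icam1 encodes ICAM-1, an immunoglobulin-like ligand of the beta-2 integrins that many cells induce under inflammatory signals. It measured 48.2, 59.0 and 15.5 CPM in the 3 libraries of intact blood and 227, 301 and 408 CPM after resection. The log2 fold change was 2.93 (SE 0.46, adjusted p = 0.00299). Intact blood was the lowest and resected blood the highest of the 4 groups, with both splenic groups between them. Leaving out single libraries gave log2 fold changes from 2.54 to 3.29, with adjusted p-values up to 0.0107, and leaving out the 3 libraries that stand apart gave 2.29 (adjusted p = 0.00334).

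Cd44 encodes the hyaluronan receptor, which also carries selectin-binding sugars. Its values were 400.1, 434 and 225 CPM in intact blood and 739, 1134 and 1483 CPM after resection. Every library after resection was higher than every intact one, with a log2 fold change of 1.66 (SE 0.33, adjusted p = 0.00794). The call was kept without any single library (1.41 to 1.89, adjusted p up to 0.0286) and without the 3 libraries that stand apart (1.16, adjusted p = 0.00887). It was missed when the blood libraries were fitted alone (1.67, adjusted p = 0.0505).

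Fermt3 encodes kindlin-3, the kindlin of blood cells. It lay at 219.9, 220.1 and 189 CPM in intact blood and at 355, 370 and 387 CPM after resection, a log2 fold change of 0.82 (SE 0.14, adjusted p = 0.00395). The libraries within each state were close together and the states did not overlap. Without single libraries the log2 fold change ran from 0.75 to 0.86 (adjusted p up to 0.0158), and without the 3 libraries that stand apart it was 0.71 (adjusted p = 0.00303). Tln1, whose product binds the same integrin tails, measured 1037, 954 and 734 CPM in intact blood and 975, 946 and 1415 CPM after resection. Its libraries overlapped (0.29, SE 0.20, adjusted p = 0.327), and without the 3 libraries that stand apart the log2 fold change was -0.06.

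Selplg, the gene of the main P-selectin ligand, had 323, 334 and 163 CPM in intact blood and 368, 453 and 621 CPM after resection. The states did not overlap, yet the log2 fold change of 0.81 (SE 0.36) did not pass (adjusted p = 0.137), and it was 0.31 without the 3 libraries that stand apart. F11r, at 5.61, 7.45 and 1.33 CPM before and 8.39, 8.59 and 10.1 CPM after, was separated likewise (0.91, adjusted p = 0.196), with a log2 fold change of 0.46 without intact blood library 3, 1.38 without intact blood library 2 and 0.37 without the 3 libraries that stand apart. Alcam had 59.8, 49.2 and 30.1 CPM in intact blood and 64.5, 65.6 and 66.0 CPM after resection, the narrowest group of the 4 for this gene (0.50, adjusted p = 0.153). Its log2 fold change was 0.26 without intact blood library 3 and 0.24 without the 3 libraries. In each of these 3 genes, intact library 3 was the lowest of its group.

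Pecam1 was the only one of the 10 besides Cd99l2 with a negative log2 fold change in blood. It measured 119.6, 121 and 82.0 CPM in intact blood and 82.6, 66.8 and 54.7 CPM after resection, so that the lowest intact library met the highest resected one. The log2 fold change of -0.66 (SE 0.25) did not pass (adjusted p = 0.0854). It passed without intact blood library 3 (-0.83, adjusted p = 0.0416), without resected spleen library 3, which bears on the dispersion pooled over groups (-0.67, adjusted p = 0.0498), and without all 3 libraries that stand apart (-0.70, adjusted p = 0.0222). Cd99l2 (-0.25, adjusted p = 0.577) and Jaml (0.48, adjusted p = 0.504) overlapped between the states, and without the 3 libraries they were at -0.044 and -0.14.

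Genes of other cells moved with resection in blood as well. All 10 neutrophil markers passed as higher, their sum going from a range of 159 to 581 CPM to one of 4289 to 21527 CPM. Of 7 peritoneal macrophage markers 5 passed as higher (sums of 864 to 1903 and 9213 to 12865 CPM, of which Saa3 was 10.7 to 217 and 3759.8 to 8776 CPM), and 6 of 7 red pulp macrophage markers did (151 to 508 and 2141 to 2762 CPM). Of the red pulp list, Adgre1 held 793 to 1140 CPM in resected blood, Spic 1.98 to 6.42 CPM and Vcam1 1.37 to 4.78 CPM. In resected spleen Spic was at 75.0 to 126 CPM and Vcam1 at 377 to 1572 CPM. Of the 7 T-cell markers counted, 5 passed as lower (756 to 2288 and 131 to 266 CPM). Of 8 platelet markers 1 passed as higher (91.4 to 324 and 832 to 915 CPM). Pf4 alone held 20.2 to 72.7 and 537 to 643 CPM of these sums. Ppbp and Gp1bb were separated too, whereas Gp9, Gp1ba, Itga2b, Treml1 and Gp6 overlapped between the states. Of 6 plasma cell markers 3 passed as higher (sums of 158 to 227 and 294 to 345 CPM). Most of these sums was Xbp1 (97.4 to 129 and 185 to 212 CPM). Jchain and Prdm1 were separated in the same direction, whereas Mzb1 and Sdc1 overlapped between the states. Tnfrsf17 was at 3 counts or fewer in every blood library. No NK-cell marker passed (sums of 137 to 311 and 30.2 to 81.0 CPM). Of the 10 monocyte markers 1 passed as higher and 1 as lower, with overlapping sums (3113 to 8680 and 7955 to 11381 CPM). The sums of the neutrophil, peritoneal macrophage, red pulp macrophage, T-cell, NK-cell, platelet and plasma cell lists did not overlap between the states. Their part in the change of Icam1, Cd44 and Fermt3 was not tested. Of the endothelial list, Emcn was at 3 counts or fewer in every library of all 4 groups and Tek and Cldn5 in every blood library. Of its 7 tested genes 1 passed as higher after resection in blood. The sum was 20.2 to 63.7 CPM in intact and 40.4 to 54.8 CPM in resected blood. Nearly all of it was Vwf (19.3 to 61.9 and 38.2 to 52.3 CPM).

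**Figure D2:**
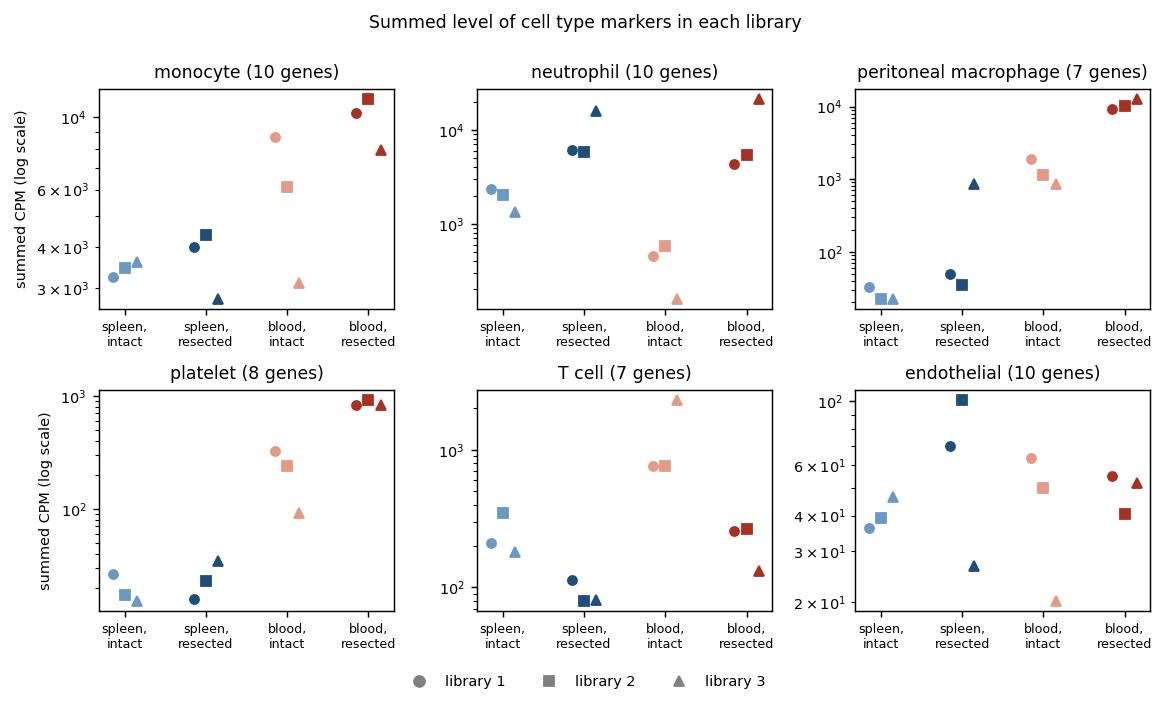
Each panel plots the summed CPM of one marker list (log axis) in the 12 libraries by group, with a symbol for each library number. Neutrophil, peritoneal macrophage and platelet sums are higher, and T-cell sums lower, in every blood library of resected mice than in every intact one. Most of the platelet sum in resected blood is Pf4. The T-cell sum of intact blood library 3 (2288 CPM) is the highest of all.

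In spleen, 0 of the 10 genes passed after resection, where 2.05% of all features passed in either direction (1.02% higher and 1.03% lower). At an unadjusted p under 0.05 there were 2, F11r and Cd99l2, against 20.8% of all features. The libraries of the 2 states did not overlap for 3 of the 10, all higher after resection (Cd44, F11r and Cd99l2), against 17.4% of all features in that direction. The median log2 fold change of the 10 genes was 0.193 and that of all features 0.0498.

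F11r encodes JAM-A, a junctional adhesion molecule of endothelium, epithelium and leukocytes. It had 2.59, 3.03 and 3.11 CPM in intact spleen and 8.22, 8.95 and 10.1 CPM after resection. The 2 states were well apart, with a log2 fold change of 1.64 (SE 0.48, a 3.12-fold difference) that did not pass (adjusted p = 0.0989). The value passed in DESeq2 (1.63, adjusted p = 0.0133), with the splenic libraries fitted alone (1.64, adjusted p = 0.0425), without intact blood library 3 (1.64, adjusted p = 0.00642) and without the 3 libraries that stand apart (1.56, adjusted p = 0.0111). Of all features, 1460, 83, 1154 and 835 passed as higher in these settings, in that order, against 206 in the main setting. After resection F11r stood at the same level in both organs, at 9.09 ± 0.95 CPM in spleen beside 9.02 ± 0.92 CPM in blood (SD, n = 3 libraries), with a 95% interval of the log2 difference from -1.05 to 1.03.

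Cd99l2, a relative of the diapedesis molecule CD99, had 8.29, 8.22 and 11.2 CPM in intact spleen and 11.7, 22.0 and 13.7 CPM after resection (log2 fold change 0.77, SE 0.29, adjusted p = 0.164, and 0.45 without resected library 2). Cd44 had 247, 279 and 253 CPM in intact spleen and 372, 318 and 585 CPM after resection (0.71, SE 0.33, adjusted p = 0.251). In both genes the states were separated, and for Cd44 the highest value was that of library 3, the one with most neutrophil RNA. Without the 3 libraries that stand apart the log2 fold change of Cd44 in spleen was 0.40.

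Jaml, which binds the coxsackie and adenovirus receptor at junctions, varied widely among the splenic libraries. It measured 107, 92.1 and 51.7 CPM in intact mice and 20.7, 39.8 and 72.5 CPM after resection, and the states overlapped through library 3 of the resected mice (-0.92, SE 0.48, adjusted p = 0.307). The log2 fold change was -1.47 without that library (adjusted p = 0.207), -0.58 without resected library 1 and -1.47 without the 3 libraries that stand apart (adjusted p = 0.0603). Icam1 had 71.1, 96.0 and 111 CPM in intact spleen and 149.7, 95.8 and 138 CPM after resection, also with overlap (0.46, SE 0.43, adjusted p = 0.586). Selplg (0.27), Fermt3 (0.11), Tln1 (-0.05), Pecam1 (-0.40) and Alcam (-0.39) overlapped between the states, with adjusted p-values from 0.371 to 0.933, and Pecam1 was at -0.20 without the 3 libraries. Of these, Selplg and Fermt3 turned to -0.13 and -0.02 without resected spleen library 3, and Tln1 to 0.04 without resected spleen library 2.

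In the splenic libraries 2 of the 10 neutrophil markers passed as higher after resection, with sums of 1340 to 2340 CPM in intact mice and 5742 to 15834 CPM in resected ones. So did 1 of 7 red pulp macrophage markers (1109 to 1689 and 2243 to 4146 CPM) and 1 of 6 plasma cell markers (2215 to 3081 and 4069 to 4740 CPM). The B-cell sum was 4991 to 5673 CPM and 1238 to 4214 CPM, with 0 of 8 markers past the test. None of these sums overlapped between the states. The T-cell (180 to 345 and 80.2 to 114 CPM) and NK-cell sums (67.7 to 139 and 9.07 to 38.5 CPM) did not overlap either. The same held for the erythroid, dendritic cell and peritoneal macrophage sums, and no marker of these further lists passed. The dendritic cell sum followed Ccr7 (261 to 468 and 531 to 1403 CPM), and every other gene of that list was lower on average after resection. The peritoneal macrophage sum followed Saa3 (0.106 to 6.92 and 19.0 to 847 CPM). Garnl3 and Gata6 were also higher on average, whereas Timd4, Prg4, Lyz1 and Alox15 were lower. The part of all these lists in the levels of the 10 genes was not tested.

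**Figure D3:**
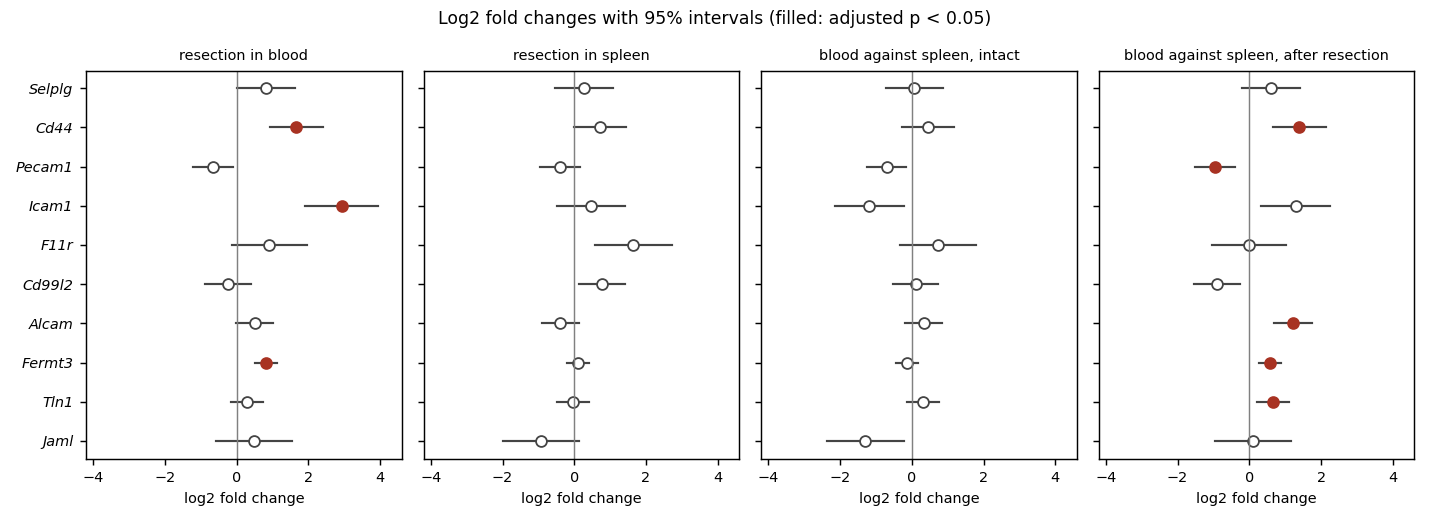
Points give the log2 fold change of each gene in the 4 comparisons between groups, with lines for the 95% interval, and filled points had an adjusted p under 0.05 in edgeR's quasi-likelihood test. Filled points appear for resection in blood (3 genes) and for blood against spleen after resection (5 genes), and none for resection in spleen or for blood against spleen in intact mice.

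Whether the response to resection differed between the organs was tested as an interaction. None of the 10 genes passed, where 0.283% of all features did, while 4 had an unadjusted p under 0.05, against 17.3% of all features. The largest difference was that of Icam1, whose log2 fold change in blood exceeded that in spleen by 2.47 (95% interval 1.11 to 3.83, adjusted p = 0.126). For Fermt3 the difference was 0.71 (0.27 to 1.15, adjusted p = 0.157), for Alcam 0.89 (0.16 to 1.61, adjusted p = 0.223) and for Cd99l2 -1.02 (-1.92 to -0.12, adjusted p = 0.244). The intervals of these 4 leave out 0 before adjustment for the number of features. DESeq2 called Icam1 (2.49, adjusted p = 0.00318) and Fermt3 (0.75, adjusted p = 0.00224), and Fermt3 also passed without the 3 libraries that stand apart (0.73, adjusted p = 0.0412). Of all 20135 features, DESeq2 called 904 higher and 717 lower in this test. Without the 3 libraries 377 and 205 passed, against 44 and 13 in the main setting.

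In intact mice, 0 of the 10 genes passed between blood and spleen, where 9.17% of all features passed (4.51% higher and 4.66% lower in blood), and 3 had an unadjusted p under 0.05, against 25.3% of all features, while DESeq2 called 0. These were Pecam1, Icam1 and Jaml, each lower in every blood library than in every splenic one, a separation seen in 20.9% of all features. Pecam1, which both leukocytes and endothelium carry, measured 196, 183 and 147 CPM in spleen against the blood values of 82.0 to 121 CPM given above (log2 fold change -0.70, SE 0.25, adjusted p = 0.108). Icam1 had a log2 fold change of -1.18 (SE 0.43, adjusted p = 0.118). Jaml, at 40.2, 41.3 and 21.0 CPM in intact blood, had one of -1.29 (SE 0.48, adjusted p = 0.124). Intact blood library 3 was the lowest of the 3 for 9 of the 10 genes, all but Cd99l2. Without it, F11r (1.27, adjusted p = 0.00576) and Alcam (0.66, adjusted p = 0.0387) passed as higher in blood, while Pecam1 (-0.44) and Icam1 (-0.69) were closer to 0. Without all 3 libraries that stand apart Cd44 (0.79, adjusted p = 0.0302) and Tln1 (0.56, adjusted p = 0.0143) passed too. Of all features 1297 passed as higher without intact blood library 3 and 1897 without the 3 libraries, against 908 in the main setting. Between these blood and splenic libraries, 5 of 10 neutrophil, 4 of 7 red pulp macrophage and 4 of 6 plasma cell markers passed as lower in blood, and 5 of 7 T-cell, 7 of 8 platelet and 6 of 7 peritoneal macrophage markers as higher. Their part in the levels of Pecam1, Icam1 and Jaml was not tested.

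After resection, 5 of the 10 genes passed between blood and spleen, 4 higher and 1 lower in blood, where 8.54% and 10.6% of all features passed. With RLE in place of TMM factors the calls over all features moved from 1719 higher and 2130 lower to 2030 higher and 1664 lower, the median log2 fold change going from -0.14 to -0.03. The libraries of the 2 organs did not overlap for 7 of the 10 genes (42.4% of all features in either direction). This comparison uses the same libraries of resected mice as the comparisons with intact mice above, so the values are not independent of those.

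Cd44 stood at 1118 ± 372 CPM in resected blood, against 425 ± 141 CPM in resected spleen (SD, n = 3 libraries each), a log2 fold change of 1.40 (SE 0.33, adjusted p = 0.0178). The call was lost without resected spleen library 1 (1.41) or 2 (1.33) or resected blood library 2 (1.39) or 3 (1.14). Fermt3 was at 371 ± 15.9 CPM against 249 ± 37.4 CPM (0.57, SE 0.14, adjusted p = 0.0196), and this call was lost without resected blood library 2 (0.57) or 3 (0.54) and with only the groups compared (0.63, adjusted p = 0.0559). Without the 3 libraries that stand apart both passed (1.54, adjusted p = 0.00261, and 0.77, adjusted p = 0.00163).

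Alcam, a homophilic adhesion molecule and the ligand of CD6, was the only one of the 5 whose call was kept under all 22 alternatives. Its splenic values after resection were 35.5, 25.4 and 23.7 CPM, all under the blood values of 64.5 to 66.0 CPM. The difference was 2.32-fold (adjusted p = 0.00733), and with any single library left out the adjusted p was at most 0.0272. Pecam1 was lower in blood, at 68.0 ± 14.0 CPM against 133 ± 36.4 CPM (log2 fold change -0.96, SE 0.25, adjusted p = 0.0252). That call was lost without intact spleen library 1 (-0.86) or 2 (-0.86), resected spleen library 1 (-0.70) or 2 (-0.79), or resected blood library 2 (-0.95) or 3 (-0.83). Tln1 was at 1112 ± 263 CPM against 706 ± 84.0 CPM (0.66, SE 0.20, adjusted p = 0.0462). Its call was lost without resected spleen library 1 (0.77) or 2 (0.67), resected blood library 1 (0.74), 2 (0.76) or 3 (0.45), or intact blood library 1 or 2 (0.66 each), and also with only the groups compared (0.72, adjusted p = 0.0837) or without the low-count filter (0.74, adjusted p = 0.0627).

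Icam1 was higher in every blood library than in every splenic one after resection and did not pass (adjusted p = 0.0633) except in DESeq2 (1.40) and some further settings, among them without intact blood library 3 (1.39). Leaving out the 3 libraries that stand apart gave 1.21 (adjusted p = 0.0206). Cd99l2 was separated in the opposite direction, at 9.34, 8.97 and 6.84 CPM in blood (-0.91, SE 0.29, adjusted p = 0.0507). It passed without intact blood library 2 (-0.91, adjusted p = 0.0468) and was at -0.50 without resected spleen library 2. Selplg (0.61, adjusted p = 0.264) overlapped between the organs and passed without the 3 libraries (0.89, adjusted p = 0.0258). Jaml (0.11, adjusted p = 0.907) overlapped as well, and its sign turned without resected spleen library 1 (-0.13) or resected blood library 3 (-0.25). All 8 platelet markers and 6 of 7 peritoneal macrophage markers passed as higher in these blood libraries (platelet sums of 832 to 915 CPM against 15.7 to 34.3 CPM). So did 5 of 7 erythroid and 4 of 7 T-cell markers. Lower in blood were 5 of 6 plasma cell, 3 of 7 red pulp macrophage and 3 of 7 dendritic cell markers. Of 10 monocyte markers 3 passed as higher and 2 as lower (sums of 7955 to 11381 against 2786 to 4372 CPM). The part of these lists was not tested.

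Per kilobase of exon (GENCODE vM21 gene models), the scale on which genes can be set side by side, Tln1 (74.3 CPM per kb) and Selplg (60.9) had the highest mean levels of the 10 in intact spleen. Fermt3 (39.9), Cd44 (38.3), Pecam1 (28.1), Jaml (26.9) and Icam1 (21.3) followed, and Alcam (5.19), Cd99l2 (1.89) and F11r (1.09) were lowest. In intact blood Tln1 (92.7) and Selplg (64.0) led again and Icam1, at 9.39, stood below Jaml and Pecam1 (17.3). In resected blood Cd44 (165) was first, above Tln1 (113) and Selplg (112), and Icam1 (71.5) came next, above Fermt3 (64.1). Pecam1 (10.9) then stood below Jaml (15.3). No test was run between genes.

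**Figure D4:**
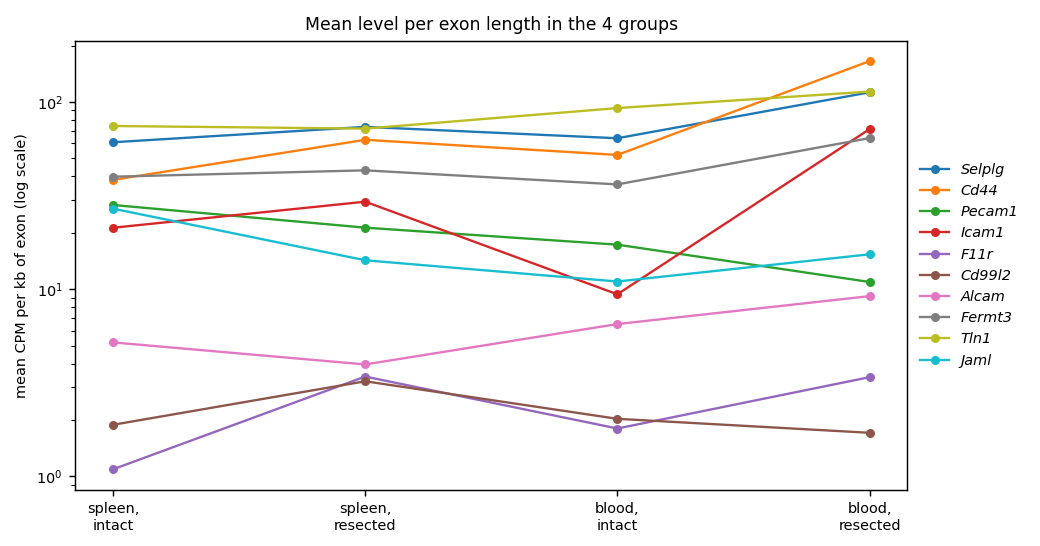
The plot gives the mean CPM per kilobase of exon of each gene (log axis) in the 4 groups, with lines joining the values of a gene. In resected blood Cd44 (165) lies above Tln1 (113) and Selplg (112), and Icam1 rises from 9.39 in intact to 71.5 in resected blood.

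The order of the 4 group means was the same for Selplg and Cd44, for Icam1 and Fermt3, and for Alcam and Tln1, and many neighbours in it overlapped. For Selplg, Pecam1, Tln1 and Jaml every pair of groups next to each other in the order of means overlapped. For Cd44 and Fermt3 only resected blood stood clear of the group below it. For Icam1 the order was intact blood, intact spleen, resected spleen and resected blood, with overlap only between the splenic groups. For F11r both resected groups stood above both intact ones. For Cd99l2 resected spleen, and for Alcam resected blood, stood clear at the top.

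Over the 12 libraries, the root mean square distance between the centred log2 CPM of 2 of the genes was smallest for Fermt3 and Tln1 (0.275) and largest for Pecam1 and Icam1 (1.52). Icam1 had the widest spread around its own mean (1.21) and Tln1 the narrowest (0.316). Among 8988 features with a mean of at least 10 CPM, the nearest to Icam1 were Map3k8 (distance 0.311) and Lpcat2 (0.365), those to Cd44 Rab8b (0.154) and Mapkapk2 (0.180), and those to Fermt3 Arpc4 (0.0890) and Tbc1d23 (0.0901). Nearest to Selplg were Borcs6 (0.161) and Mcl1 (0.166), to Tln1 Eif4e3 (0.123) and Wdr37 (0.135), to Pecam1 Txndc16 (0.142) and Tmem245 (0.153), and to Alcam Peak1 (0.135) and Trpm4 (0.212). Nearest to F11r were Nfe2 (0.325) and Pim1 (0.333), to Cd99l2 Rabggtb (0.187) and Xpo7 (0.187), and to Jaml Slc35a5 (0.281) and Tlr8 (0.344). The points share group differences and libraries, and the distances are a description.

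The other genes of the same steps were followed in 5 lists, to be read against the 10.8% of all features that passed as higher and the 10.3% as lower in blood, and the 1.02% and 1.03% in spleen. Among selectins and further selectin ligand carriers, 7 of 8 were tested, of which 2 passed as higher and 1 as lower after resection in blood and 0 in spleen. Selp, the gene of P-selectin, went from 70.7, 20.7 and 28.2 CPM to 273, 323 and 256 CPM in blood (log2 fold change 2.83, SE 0.66, adjusted p = 0.0146). Spn, the gene of the carrier CD43, fell from 283, 259 and 186 CPM to 79.9, 70.8 and 80.7 CPM (-1.65, adjusted p = 0.0105), while Selplg and Cd44, the carriers among the 10 genes, had positive values. Of 12 tested enzymes and transporters that build or sulfate selectin ligands, 1 passed as higher and 2 as lower in blood and 1 as lower in spleen. C1galt1, which builds the core of O-glycans, fell from 33.0 ± 4.58 CPM to 19.2 ± 3.05 CPM in blood (SD, n = 3 libraries, -0.78, adjusted p = 0.00714), a call lost with only the blood libraries fitted (-0.77, adjusted p = 0.0670). The calls of C1galt1c1 and Slc35c1 in blood were lost with any of 10 and 6 of the 12 libraries left out, and that of Slc35c1 in spleen with any of 10.

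Of 15 tested ligands, cytoskeletal linkers and sheddases of CD44, 5 passed as higher after resection in blood and 0 as lower, and none passed in spleen. Spp1, the gene of the CD44 ligand osteopontin, went from 0.991, 1.13 and 4.52 CPM to 815, 1203 and 1042 CPM (log2 fold change 8.83, SE 0.80, adjusted p = 0.000428). Srgn, the gene of the proteoglycan serglycin, went from 427, 376 and 173 CPM to 1396, 2024 and 2512 CPM (2.60, SE 0.40, adjusted p = 0.00282). Spp1 was also the only gene of the 5 lists that passed the test of the difference between organs (6.80, adjusted p = 0.0317), a call lost without 7 of the 12 libraries, namely intact spleen library 1 (6.67), 2 (6.76) or 3 (6.97), resected spleen library 1 (6.52) or 2 (6.58) or resected blood library 2 (6.66) or 3 (6.78).

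Of 18 tested adaptors of integrin activation, 4 passed as higher after resection in blood and 1 as lower, beside Fermt3 among the 10 genes. Rap1b, a small GTPase that brings talin to integrins, went from 456 ± 144 CPM to 1251 ± 180 CPM (SD, n = 3 libraries, log2 fold change 1.46, adjusted p = 0.00373), and Skap2 from 57.6 ± 11.1 CPM to 147 ± 42.5 CPM (1.36, adjusted p = 0.00374). Skap1, the T-cell counterpart of Skap2, fell from 81.1 ± 33.6 CPM to 22.8 ± 6.26 CPM (-1.83, adjusted p = 0.00722), beside the fall of the T-cell markers given above. Of 16 junctional partners and other ligands, 5 passed as higher and 1 as lower in blood, and 1 as higher in spleen. Jam2, a relative of F11r, went from 4.65, 1.70 and 4.91 CPM to 23.8, 28.2 and 21.3 CPM (2.70, adjusted p = 0.00366). Cd6, whose product binds ALCAM from the T-cell side, fell from 98.9, 82.3 and 87.5 CPM to 27.4, 26.4 and 18.3 CPM (-1.90, adjusted p = 0.0129), a call lost without resected blood library 3 (-1.74), while Alcam itself did not pass in this comparison.

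The same lists were counted between the organs. In intact mice, 2, 0, 4, 2 and 0 genes of the selectin, enzyme, junction, adaptor and CD44 lists passed as higher in blood and 0, 2, 1, 0 and 1 as lower, against 4.51% and 4.66% of all features. After resection, 1, 1, 4, 4 and 4 passed as higher in blood and 0, 1, 1, 0 and 1 as lower, against 8.54% and 10.6%. Jam2 had the smallest p of the junctional genes that were higher in blood in both states, at 0.154 ± 0.0311 CPM in intact spleen against 3.75 ± 1.79 CPM in intact blood (SD, n = 3 libraries), and at 0.165 ± 0.0932 CPM against 24.4 ± 3.51 CPM after resection. Rap1b was among the adaptors that passed after resection (1.19, adjusted p = 0.00904), beside Fermt3 and Tln1 among the 10 genes. The median log2 fold changes of the 5 lists after resection ran from 0.195 to 1.00, against -0.139 for all features.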

How the data were processed

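The authors isolated the cells and deposited 1 table of estimated counts per library, unscaled, with up to 3 decimals. Per the labels, libraries were strand-specific and reads were aligned to GRCm39 with STAR; its version, the counting tool and the annotation are not given in the sources used here. Each table held 67088 entries. Unassigned transcripts (1.75 to 4.33% of counts) were left out, accession entries were summed with their symbol through RefSeq of GRCm38.p6 (none matched the 10 genes), and sums were rounded. Exons of 5 of the 10 genes (Icam1, Cd99l2, Fermt3, Tln1 and Jaml) overlap a gene of the opposite strand in GENCODE vM21, and it is not stated whether counting used strand.

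Counts were tested with edgeR 4.0.16 in R 4.3.3 (filterByExpr, TMM factors of 0.661 to 1.26, robust quasi-likelihood fit over 12 libraries and 4 groups, common dispersion 0.312, no covariates, no fold limit). Standard errors are the absolute log2 fold change over the square root of F. The test was also run on simulated counts, with larger changes than most given here and no libraries that stand apart. That run does not bear on smaller changes or on outlying libraries. The 5 comparisons were resection in blood and in spleen, blood against spleen in intact and in resected mice, and their difference. Distances use log2 CPM with a prior count of 2. Named genes are the 10, the 2 genes per list and direction with the smallest p among those that passed (not all given with values), and the 2 nearest features to each. The genes, the 5 lists and the 12 marker lists were chosen with earlier results of these data known. Alternatives were DESeq2 1.42.0, RLE factors, no filter, at least 10 counts in every library, no haemoglobin genes, a replicate block, only the groups compared, entries as deposited, a log2 fold limit of 1, each library left out, and, chosen after seeing the marker sums, 3 libraries left out. Counts of 3 or fewer (0.0626 to 0.102 CPM) were taken as the limit of counting, which covers counting error only.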

Additional observations from a re-analysis of the deposited data

How the results depend on the processing

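Of 1090 values of the 10 genes under alternatives, 999 kept their direction and side of the threshold, 31 lost and 28 gained a call, and 32 changed sign. Most of these values had no call in the main setting and so none to lose. Between blood and spleen after resection, Tln1 lost its call under 11 of 22 alternatives and Pecam1 under 10. Cd44 and Fermt3 lost theirs there under 4 each, and Alcam kept its call. The fold limit reuses the main values, so it cannot change a sign or add a call. Icam1 kept its call in blood under all 22 alternatives. Fermt3 lost it only under the log2 fold limit of 1 and Cd44 only with the blood libraries alone. The libraries' numbers were not taken to pair samples, since it is not stated whether equal numbers mark the same pools of mice. Same-numbered deviations correlated between -0.046 and 0.189, with 0.042, 0.131 and 0.189 for libraries 1 to 3 of resected spleen and blood. A library correlated best with the same number of another group in 18 of 36 cases, where unrelated numbers would give about 1 in 3. Shared pools are therefore possible, and the tests between organs treat the libraries as independent. A replicate block added Pecam1 as lower for resection in blood (1 gene in place of 0) and as lower in intact blood than spleen (1 in place of 0), and ended the Tln1 call between blood and spleen after resection (0.65). With that block 1567 and 748 of all features passed as lower in the former 2 comparisons, against 2074 and 938. The cause of the changes below was not tested.

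Over single libraries left out, the number of genes passing was 3 to 3 higher and 0 to 1 lower for resection in blood, 0 to 1 higher in spleen, 0 to 2 higher in intact blood against spleen, and 1 to 5 higher and 0 to 2 lower in blood against spleen after resection. The calls gained in spleen and in intact blood came without intact blood library 3. There 1154 and 1297 of all features passed as higher, against 206 and 908 in the main setting. Without the 3 libraries that stand apart, 1 gene passed as lower for resection in blood, 1 as higher in spleen, 4 as higher in intact blood, and 1 in the test of the difference. Of all 20135 features, 2493, 835 and 1897 passed in the same way, against 2074, 206 and 908 in the main setting. The difference gave 377 higher and 205 lower, against 44 and 13. DESeq2 called 1 gene higher for resection in spleen, 2 lower in the comparison of blood against spleen after resection, and 2 in the difference. Of all features, DESeq2 called 1460 and 2713 in this way, against 206 and 2130, and 904 higher and 717 lower in the difference. With only the groups compared, 1 passed as higher in spleen, as did 83 of all features. In blood against spleen after resection, 0 passed as lower without the filter, with only the groups compared, with entries as deposited or under the fold limit, which also left 2 higher, and 2 passed as lower with at least 10 counts in every library. Of all features tested, 1260 of 32952 passed as lower without the filter and 1623 of 20135 with only the groups compared. With entries as deposited 1603 of 22223 did, and with at least 10 counts 1818 of 13564.

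Sign changes were mostly of values near 0. In blood against spleen after resection, F11r (-0.011) was at 0.10 in DESeq2, 0.10 with RLE factors, 0.070 without the filter, 0.0095 with at least 10 counts, 0.11 without haemoglobin, 0.052 with only these groups, 0.090 with entries as deposited, 0.085 without the 3 libraries and from -0.098 to 0.17 without single ones, and Jaml ran from -0.25 to 0.76 without single libraries. Without the 3 libraries, Tln1 (-0.062) and Jaml (-0.14) turned for resection in blood, Selplg (-0.13) and Fermt3 (-0.021) in spleen, and Fermt3 (0.039) between the organs in intact mice. Without single libraries, resection in spleen gave -0.13 to 0.46 for Selplg, -0.016 to 0.19 for Fermt3 and -0.13 to 0.042 for Tln1, and intact blood against spleen -0.098 to 0.44 for Selplg, -0.0070 to 0.37 for Cd99l2 and -0.17 to 0.038 for Fermt3.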
